A study of Mus musculus with 12 samples.

Results

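Cish and 5 suppressor of cytokine signalling genes, Socs1, Socs2, Socs3, Socs5 and Socs6, were followed in alveolar macrophages, the resident phagocytes of the lung airspace. The 6 genes were taken by their symbols in the platform annotation and are covered by 7 probes, of 25697 probes on the array. Detection on at least 3 of 12 arrays was asked of a probe, which 6 of the 7 probes met, and 5 of the 6 genes entered a fit of 6563 genes. RNA was measured on Illumina bead arrays in 4 groups of 3 arrays: Lmp7 knockout cells polarized with IL-4 (M2), wild-type cells polarized with IL-4, unpolarized (M0) Lmp7 knockout cells and unpolarized wild-type cells. All mice were C57Bl/6J, aged 8 to 12 weeks. Lmp7, also called Psmb8, encodes a catalytic subunit of the immunoproteasome, and the series asks how its loss bears on alternative polarization. Cells came from lungs by lavage, and IL-4 was given to M2 cells for at most 24 h, at 20 ng/ml. The labels do not say whether the arrays of a group came from separate mice or pools, so the spread behind each p-value is that of these samples and may be only technical.

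Cytokine receptors such as those for IL-4 signal through Janus kinases (JAKs), which phosphorylate STAT transcription factors. CISH and some SOCS proteins are made in response to this signalling and act back on it. They bind receptors or JAKs through an SH2 domain and recruit an elongin and cullin ubiquitin ligase through a SOCS box. In macrophages IL-4 acts mainly through STAT6, while Cish and Socs2 are best known as STAT5 targets, Socs3 as a STAT3 target and Socs1 as a gene induced by interferon.

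The RefSeq promoters of Cish, Socs3 and Socs1 (build GRCm38.p6, 250 bases before to 50 bases after the start site) are shown because STAT proteins recognise TTC and GAA set a few bases apart. Those of Socs2, Socs5 and Socs6 are not shown. Capitals mark TTCNNNGAA, in which N is any base. The motif reads the same on both strands, and the form with 1 base more between TTC and GAA, TTCNNNNGAA, was searched in the same way.
Cish, chr9:107296409-107296708, + strand: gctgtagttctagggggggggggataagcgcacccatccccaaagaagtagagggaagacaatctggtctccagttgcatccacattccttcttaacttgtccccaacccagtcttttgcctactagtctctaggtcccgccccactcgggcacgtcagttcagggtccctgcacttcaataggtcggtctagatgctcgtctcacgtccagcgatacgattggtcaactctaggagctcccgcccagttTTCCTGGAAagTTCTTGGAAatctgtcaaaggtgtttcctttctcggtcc
Socs3, chr11:117969317-117969616, - strand: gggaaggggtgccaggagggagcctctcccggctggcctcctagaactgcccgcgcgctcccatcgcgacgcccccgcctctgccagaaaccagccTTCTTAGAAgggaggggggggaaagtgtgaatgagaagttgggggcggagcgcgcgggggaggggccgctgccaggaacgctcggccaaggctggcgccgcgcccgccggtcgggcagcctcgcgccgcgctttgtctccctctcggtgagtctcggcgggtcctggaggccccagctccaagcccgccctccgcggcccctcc
Socs1, chr16:10785487-10785786, - strand: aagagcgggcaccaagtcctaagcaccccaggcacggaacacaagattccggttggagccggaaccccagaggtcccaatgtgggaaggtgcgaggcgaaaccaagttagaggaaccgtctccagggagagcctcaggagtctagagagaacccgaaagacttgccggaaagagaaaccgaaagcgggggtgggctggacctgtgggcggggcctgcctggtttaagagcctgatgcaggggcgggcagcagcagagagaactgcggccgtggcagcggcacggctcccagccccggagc
Cish held 2 matches, TTCCTGGAA at bases 1 to 9 and TTCTTGGAA at bases 12 to 20 counted from the start site. Socs3 held 1, TTCTTAGAA, 154 to 146 bases before the start site, and Socs1 held 0 in this window. None of the 3 promoters held TTCNNNNGAA. Of 32851 promoters of this length, 8.3% held at least 1 TTCNNNGAA and 0.457% held 2 or more, while 6.95% held TTCNNNNGAA. A match is a description of letters, and binding was not measured here.

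Between 25.5% and 34.2% of probes were detected per array (detection p under 0.05), and arrays a of knockout M2, knockout M0 and wild-type M0 cells had the lowest shares. The letters a, b and c name the 3 arrays of each group, since the columns of the intensity table carry no replicate number. Levels are log2 of background-corrected, quantile-normalized intensities, and the number of arrays limits their precision. Psmb8 was undetected on all 6 knockout arrays and detected on all 6 wild-type arrays. It was at least 3.32-fold lower in knockout than in wild-type M2 cells and at least 3.43-fold lower in knockout than in wild-type M0 cells (limma, adjusted p = 3.127e-05 and 1.843e-05). Of 11 alveolar macrophage markers on the array, 10 were detected, and Car4 was not. In bulk RNA of this kind, fewer cells of a type and less RNA per cell cannot be told apart.

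IL-4 raised 3 of the 5 fitted genes, Cish, Socs2 and Socs6, in knockout cells and the same 3 in wild-type cells, and lowered 0. Over all fitted genes, 10.3% were called higher and 11.3% lower with IL-4 in knockout cells, and 8.44% higher and 7.62% lower in wild-type cells. Cish was detected only on M2 arrays and so passed the detection filter through them. The M0 arrays alone would not have passed Socs1 or the brighter probe of Socs6 either. In limma's test, with Benjamini-Hochberg adjustment over the 6563 genes, a gene is called here when its adjusted p is under 0.05.

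Cish, which binds activated cytokine receptors and restrains STAT5 signalling, had the strongest response. Its deposited intensities were 523, 736 and 589 in knockout M2 cells and 385, 441 and 313 in wild-type M2 cells. In M0 cells they were -10, 3 and -9 in the knockout and -19, -7 and 2 in the wild type, where the probe was not detected on any array. On the log2 scale the levels were 9.20, 9.42 and 9.33 in knockout M2 cells, 8.39, 8.47 and 8.26 in wild-type M2 cells, 5.03, 5.13 and 4.93 in knockout M0 cells and 4.99, 4.99 and 5.15 in wild-type M0 cells. The M2 arrays lay above the M0 arrays in each genotype without overlap. In the authors' processed table, which carries replicate numbers, replicates 1, 2 and 3 of Cish read 638, 736 and 698 in knockout M2 cells, 392, 411 and 363 in wild-type M2 cells, 66, 73 and 57 in knockout M0 cells and 63, 63 and 75 in wild-type M0 cells. Because the M0 cells gave only a background value, the responses are lower bounds, at least 9.72-fold in knockout cells (limma, adjusted p = 7.554e-10) and at least 5.16-fold in wild-type cells (adjusted p = 1.222e-08). Cish stood second of the 6563 genes by p in both comparisons (rank 2).

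**Figure D1:**
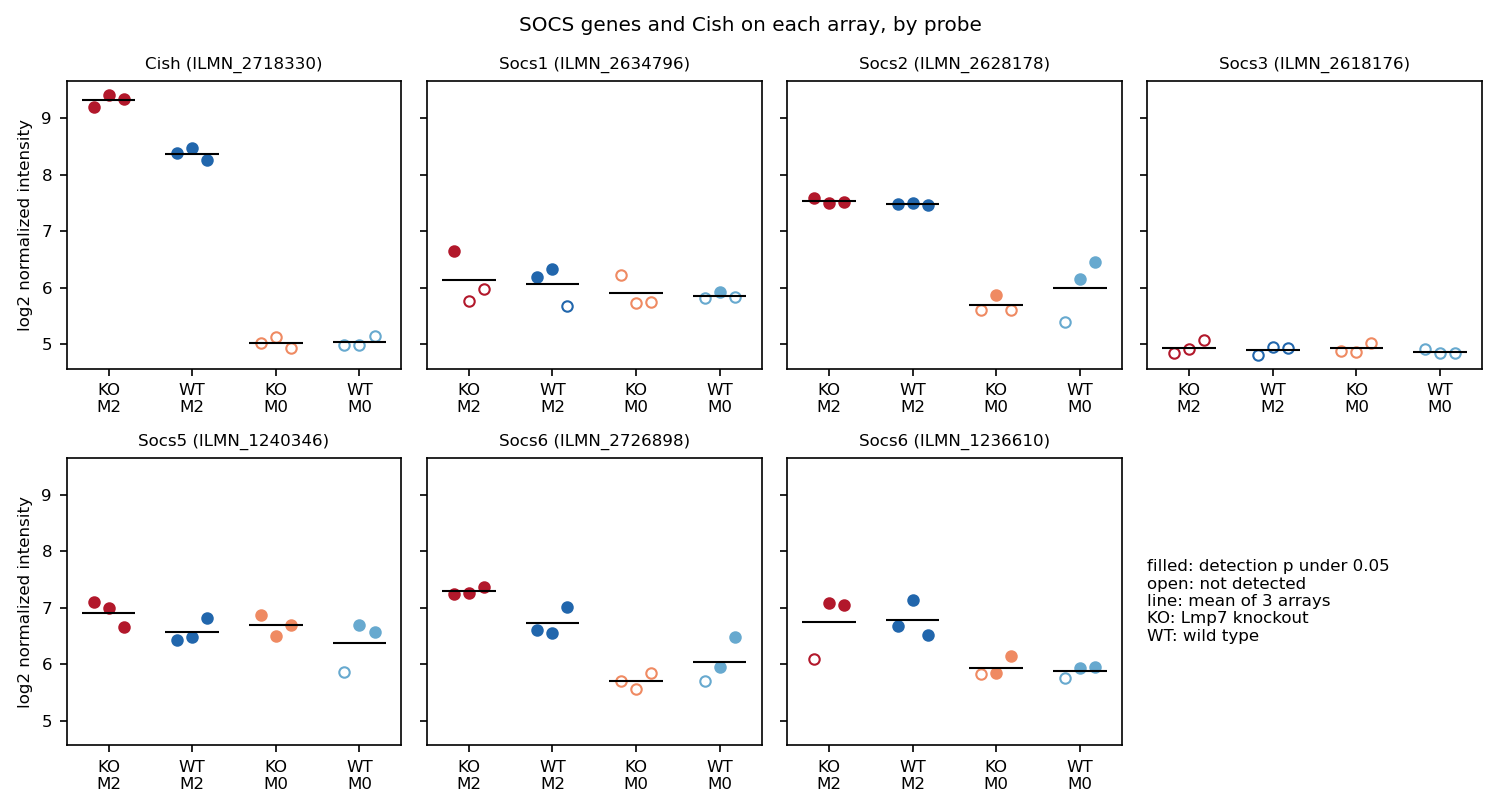
Log2 normalized intensity (vertical axis) of each of the 7 probes on each array, by group: knockout M2, wild-type M2, knockout M0 and wild-type M0. Filled points were detected, open points were not, and a line marks the mean of 3 arrays. Cish is open on all M0 arrays and filled on all M2 arrays, and Socs3 is open on all 12.

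Socs2, an inhibitor of growth hormone and related receptors, was brighter in M2 cells of both genotypes. Its levels were 7.58, 7.50 and 7.52 in knockout M2 cells, 7.48, 7.50 and 7.46 in wild-type M2 cells, 5.61, 5.87 and 5.61 in knockout M0 cells and 5.39, 6.15 and 6.46 in wild-type M0 cells. It was detected on all M2 arrays, on 1 knockout M0 array and on 2 wild-type M0 arrays, and M2 and M0 arrays did not overlap in either genotype. The log2 response was 1.84 ± 0.214 (SE) in knockout cells (limma, adjusted p = 0.0001329) and 1.48 ± 0.214 in wild-type cells (adjusted p = 0.0009787), both including M0 values near background.

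Socs6, which binds receptor tyrosine kinases and their substrates, is covered by 2 probes. The brighter, ILMN_2726898, read 7.25, 7.26 and 7.36 in knockout M2 cells, 6.61, 6.56 and 7.02 in wild-type M2 cells, 5.70, 5.56 and 5.84 in knockout M0 cells and 5.70, 5.95 and 6.49 in wild-type M0 cells. It was detected on all M2 arrays, on 0 knockout M0 arrays and on 2 wild-type M0 arrays, and M2 lay above M0 without overlap in both genotypes. The knockout response was at least 2.39-fold (limma, adjusted p = 0.0001593). The wild-type response was 0.68 ± 0.19 on the log2 scale (adjusted p = 0.03119), and this call was lost in 9 of 26 other settings, among them leaving out array a or c of wild-type M2 cells or array a or b of wild-type M0 cells.
The second probe, ILMN_1236610, averaged 6.74 ± 0.564 in knockout M2 cells, 6.78 ± 0.314 in wild-type M2 cells, 5.94 ± 0.183 in knockout M0 cells and 5.88 ± 0.105 in wild-type M0 cells (SD, n = 3 each). Fitted among all 9200 kept probes, it also rose, by 0.80 ± 0.248 in knockout cells (limma, adjusted p = 0.04012) and by 0.89 ± 0.248 in wild-type cells (adjusted p = 0.03218). Its knockout M2 and M0 arrays overlapped, since array a of knockout M2 cells read 6.09 and array c of knockout M0 cells 6.15.

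Socs1, which blocks JAK activity directly, was near the detection limit: 1 of 3 knockout M2 arrays, 2 of 3 wild-type M2 arrays, 0 of 3 knockout M0 arrays and 1 of 3 wild-type M0 arrays detected it. Its levels averaged 6.13 ± 0.457 in knockout M2 cells, 6.07 ± 0.342 in wild-type M2 cells, 5.90 ± 0.289 in knockout M0 cells and 5.86 ± 0.0611 in wild-type M0 cells (SD, n = 3 each). The response was 0.23 in knockout cells (95% interval -0.288 to 0.753) and 0.20 in wild-type cells (-0.317 to 0.723), with limma adjusted p of 0.5596 and 0.642. These intervals allow a change in either direction.

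Socs5, linked to restraint of IL-4 receptor signalling in T cells, was detected on 11 of 12 arrays, all but array a of wild-type M0 cells. It averaged 6.92 ± 0.236 in knockout M2 cells, 6.58 ± 0.213 in wild-type M2 cells, 6.69 ± 0.178 in knockout M0 cells and 6.38 ± 0.447 in wild-type M0 cells (SD, n = 3 each). The groups overlapped, with a response of 0.23 in knockout cells (95% interval -0.247 to 0.699) and 0.20 in wild-type cells (-0.273 to 0.674), and limma adjusted p of 0.5283 and 0.6103.

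Socs3, the feedback inhibitor of gp130 receptors, was not detected on any of the 12 arrays. Its deposited intensities lay between -32 and -3 in knockout M2 cells, between -40 and -16 in wild-type M2 cells, between -23 and -4 in knockout M0 cells and between -28 and -20 in wild-type M0 cells. No fold can be given for a probe at background in all groups.

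Of the 5 fitted genes, 1 differed between genotypes in M2 cells: Cish was higher in knockout cells by 0.94 ± 0.107 on the log2 scale, or 1.92-fold (95% interval 0.705 to 1.177, limma adjusted p = 0.001111). Of all genes, 0.67% were called higher and 1.37% lower in knockout M2 cells. All knockout M2 arrays were above all wild-type M2 arrays, and both groups were detected throughout, so the size of this difference does not rest on background values. Its p-value uses a spread shared by all 4 groups, undetected M0 arrays included. With only the M2 groups fitted, the limma adjusted p was 0.02149. The levels therefore ran from knockout M2 to wild-type M2 cells, with both M0 groups at background and not separable (difference -0.02, adjusted p = 0.9812). The call was lost in 1 of 26 other settings, without normexp background correction (difference 0.93, adjusted p = 0.7218). Single markers of cell types differed between genotypes too. In M2 and in M0 cells, 1 of 4 fitted neutrophil markers was called higher in knockout cells and 0 lower. Of 10 fitted alveolar macrophage markers, 0 were called higher and 1 lower in either state. Cxcr2, a neutrophil chemokine receptor, was higher in knockout M2 cells by 1.86 (adjusted p = 0.005711), and was at least 1.8-fold higher in knockout M0 cells than in wild-type M0 cells, where it was undetected (adjusted p = 0.02972). The other fitted neutrophil markers, S100a8, Camp and Csf3r, differed by 0.16, -0.22 and -0.08 in knockout M2 cells, none called. In knockout M0 cells they differed by 0.55, 0.24 and 0.40, none called. Camp was undetected on M0 arrays and Csf3r on M2 arrays. Marco, a scavenger receptor of alveolar macrophages, was lower by -1.14 in knockout M2 cells and by -1.27 in knockout M0 cells (adjusted p = 0.0007197 and 0.0003502). The part of these markers in the Cish result was not tested.

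Socs6 read higher in knockout M2 cells with its brighter probe, by 0.56 ± 0.19 without overlap of the arrays, but missed the threshold (limma, adjusted p = 0.2085). Its second probe gave -0.03 ± 0.248 for the same comparison (95% interval -0.579 to 0.51), and the difference between the probes was not tested. Socs2 differed by 0.05 (95% interval -0.417 to 0.523), Socs5 by 0.34 (-0.135 to 0.812) and Socs1 by 0.07 (-0.454 to 0.587) in M2 cells. None of the 5 was called between genotypes in M0 cells by limma, and 0 had an unadjusted p under 0.05, beside 647 of 6563 genes. Of all genes, 0.381% were called higher and 0.305% lower in knockout M0 cells.

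**Figure D2:**
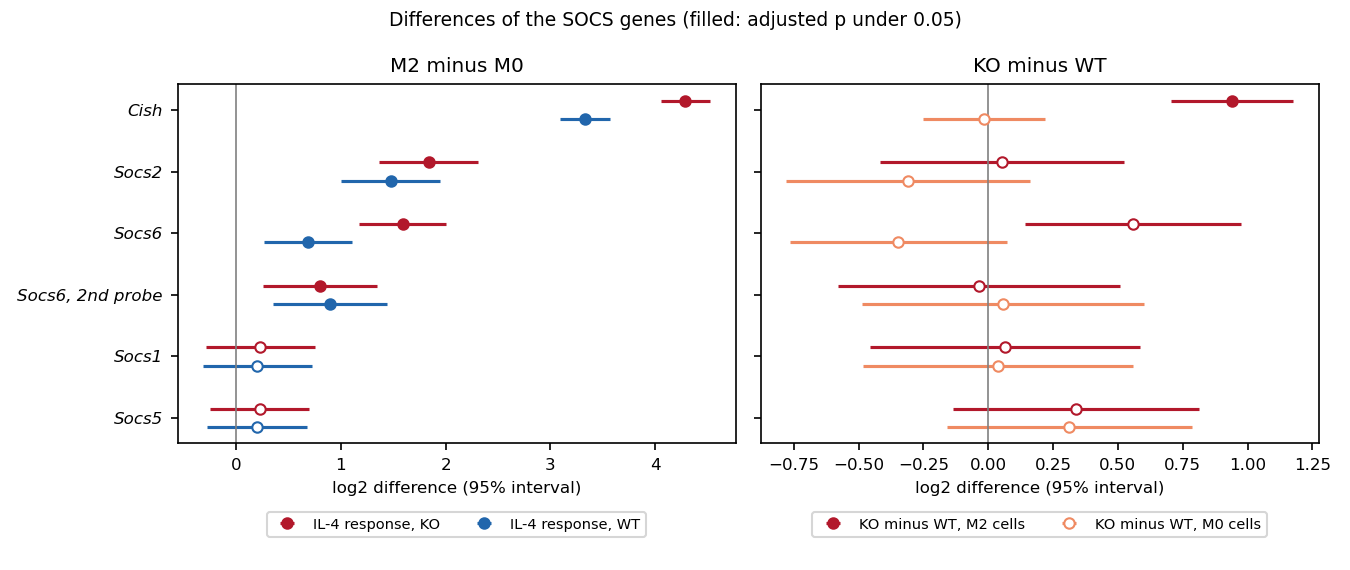
Log2 differences with 95% intervals (horizontal axis) for the fitted probes, as the IL-4 response in knockout and wild-type cells (left) and as knockout minus wild type in M2 and M0 cells (right). Filled points have an adjusted p under 0.05. Cish, Socs2 and both Socs6 probes are filled on the left in both genotypes, and Cish in M2 cells is filled on the right.

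Whether the IL-4 response itself differed between genotypes was tested as knockout response minus wild-type response. None of the 5 genes was called by limma, while 2, Cish and Socs6, had an unadjusted p under 0.05, beside 434 of 6563 genes. Of all genes, 0.0152% were called higher and 0.0609% lower. For Cish the difference was 0.96 ± 0.152 (95% interval 0.624 to 1.291), and its adjusted p of 0.05144 lay just outside the threshold. The outcome depended on the setting: the adjusted p was under 0.05 in 6 of 25 others and not in 19, with a range of 0.01871 to 0.9776. Taking log2 before quantile normalization, in place of after it, gave 0.04996. Leaving out any single array kept it outside, and the difference stayed between 0.90 and 1.01. Since Cish was at background in both M0 groups, its difference of responses repeats the difference in M2 cells. Socs6 gave 0.91 ± 0.269 with the brighter probe (limma, adjusted p = 0.4705) and -0.09 ± 0.351 with the second (adjusted p = 0.9935), and the brighter probe was undetected on all knockout M0 arrays, so its value rests on background readings there. Socs2 gave 0.36 ± 0.303, Socs1 0.03 ± 0.335 and Socs5 0.03 ± 0.304, none called.

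**Figure D3:**
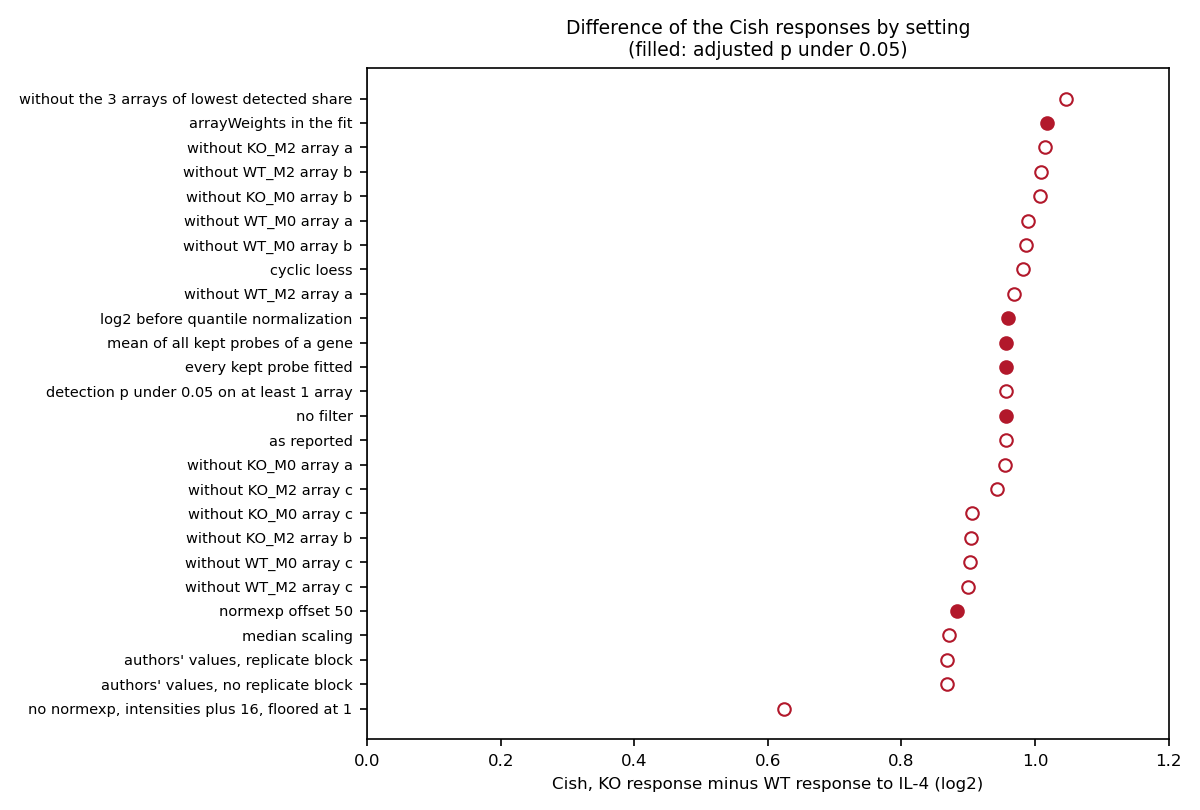
Knockout minus wild-type response of Cish to IL-4 on the log2 scale (horizontal axis) under each setting (rows), filled where the adjusted p is under 0.05. The value lies between 0.62 and 1.05 under every setting drawn, above 0, and 6 of the 25 other settings are filled.

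The remaining SOCS genes on the array were Socs4 and Socs7. Socs4 responded by 0.25 in knockout cells (limma, adjusted p = 0.3852) and by 0.54 ± 0.184 in wild-type cells (adjusted p = 0.07262), neither called, and both Socs7 probes were undetected on all arrays. Of the ubiquitin ligase partners of the SOCS box, 3 were fitted. Eloc, which encodes elongin C, rose by 0.53 in knockout cells (adjusted p = 0.009062) and read 0.09 in wild-type cells (adjusted p = 0.6993), and 0 of the 3 were called in wild-type cells, by limma. The difference of its responses between genotypes was 0.44 and not called (limma, adjusted p = 0.7227).

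Among 13 fitted JAK-coupled receptor genes, 1 rose and 6 fell with IL-4 in knockout cells, and 2 rose and 1 fell in wild-type cells. Over all genes, 10.3% were called higher and 11.3% lower in knockout cells, and 8.44% higher and 7.62% lower in wild-type cells. For the difference of the responses between genotypes, 0 of the 13 were called. Il6st, which encodes the gp130 chain, rose by 1.07 in knockout and by 0.85 in wild-type cells (limma, adjusted p = 0.0004508 and 0.003107). Csf3r, the G-CSF receptor and also one of the neutrophil markers, was undetected on all M2 arrays. It fell at least 1.17-fold in knockout cells (adjusted p = 0.0004826), and in wild-type cells, where it was detected on 1 M0 array, it was called lower with no fold that can be given (adjusted p = 0.01069). In knockout cells Il10rb, an IL-10 receptor chain, fell by 1.10 (adjusted p = 0.005605) and Csf2rb2, a beta chain of the IL-3 receptor, fell by 0.67 (adjusted p = 0.004033). Il10rb was detected on only 1 knockout M2 array, so its value includes background readings. Il7r, the IL-7 receptor chain, rose by 0.77 in wild-type cells. It was lower in knockout than in wild-type M2 cells by -2.72 and lower in knockout than in wild-type M0 cells by -1.71 (adjusted p = 3.728e-05 and 0.001178). Il7r was detected on 1 knockout M2 array and 2 knockout M0 arrays, so these sizes include background readings. Csf2rb2 was also lower in knockout M2 cells, by -1.20 (adjusted p = 0.000975).

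Of 8 JAK and STAT genes, 1 rose and 1 fell in each genotype, which is near the shares of all genes called. Jak2 rose by 0.90 in knockout cells and 0.78 in wild-type cells, and Stat3 fell by 0.51 in knockout cells and 0.42 in wild-type cells. Of 7 other inhibitors of the pathway, 0 rose and 1 fell in knockout cells, and 1 rose and 1 fell in wild-type cells, also near those shares. The phosphatase gene Ptpn6 fell by 0.76 in knockout cells and 0.71 in wild-type cells. Ptpn2 rose by 0.53 in wild-type cells and read 0.36 in knockout cells, not called (limma, adjusted p = 0.09643). The difference of its responses was not called either (limma, adjusted p = 0.9749). No gene of these groups was called between genotypes by limma.

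Of 10 fitted genes listed as STAT6 targets, 6 were higher and 0 lower with IL-4 in each genotype, beside the shares of all genes called higher, 10.3% in knockout and 8.44% in wild-type cells. Of the 6, Ccl17, Irf4, Retnla and Arg1 were detected only on M2 arrays and so passed the detection filter through them. Ccl17, a chemokine, rose at least 18.9-fold in knockout and at least 11.28-fold in wild-type cells, and Irf4, a transcription factor of alternative activation, at least 5.39-fold in knockout and at least 3.21-fold in wild-type cells. In M2 cells Retnla was higher in knockout cells by 1.57 and Irf4 by 0.78 (limma, adjusted p = 0.0002972 and 0.01281). Of 10 genes listed as STAT5 and STAT3 targets other than the SOCS genes, 2 rose and 1 fell in knockout cells and 2 rose and 2 fell in wild-type cells. The shares of all genes called lower were 11.3% in knockout and 7.62% in wild-type cells. Ccnd2, a cyclin gene, rose by 1.12 in knockout cells and 1.24 in wild-type cells, Myc rose by 1.19 in knockout cells and at least 2.21-fold in wild-type cells, and Bcl6, a repressor, fell by 0.89 in knockout cells and 0.77 in wild-type cells.

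**Figure D4:**
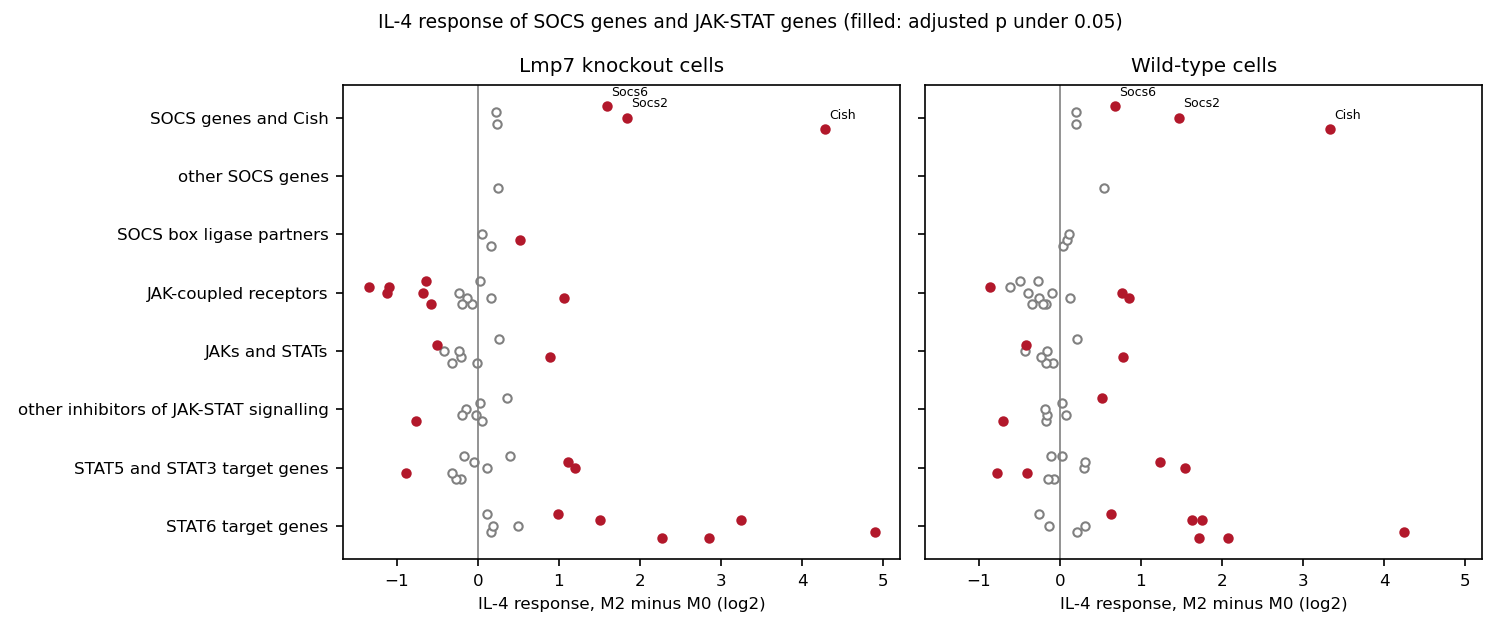
IL-4 response (M2 minus M0, log2, horizontal axis) of each fitted gene, by gene list (rows), in knockout cells (left) and wild-type cells (right). Filled points have an adjusted p under 0.05. Cish, Socs2 and Socs6 are named, and most filled points to the right of 0 belong to these genes and to the STAT6 targets.

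The 3 genes most like each member across the 12 arrays were taken by the root mean square difference of log2 values centred on each gene's mean. For Cish they were Ccl17 at 0.448, Rnase2a at 0.517 and Slc30a4 at 0.63, beside a median of 1.95 over all genes. For Socs2 they were Igsf3 at 0.193, Hyou1 at 0.196 and Creld2 at 0.224 (median 0.901). For Socs6 they were Flt1 at 0.218, Ptgir at 0.221 and Ndufc1 at 0.228 (median 0.692). Socs1 was nearest to Gimap1 at 0.145 (median 0.379) and Socs5 to Fundc2 at 0.169 (median 0.408), and both genes varied little.

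Of 9 neutrophil markers on the array 4 were detected, and Ltf, Mpo, Ngp, Retnlg and S100a9 were not. The level summed over all 9, undetected ones included, was 622.5 to 821.7 in knockout M2, 432.3 to 514.9 in wild-type M2, 628.7 to 732.5 in knockout M0 and 506.9 to 518.5 in wild-type M0 cells. These sums overlapped between M2 and M0 cells in each genotype, and those of knockout cells lay above those of wild-type cells. Among the 4 detected markers, only Cxcr2 was called between genotypes. With IL-4, S100a8 fell by 1.42 in knockout and 1.03 in wild-type cells (limma, adjusted p = 7.47e-05 and 0.00111), while Cxcr2 rose by 1.47 in knockout and at least 1.375-fold in wild-type cells (adjusted p = 0.002685 and 0.01485). Of 6 lung epithelium markers 4 were detected, and Krt8 and Krt18 were not. The sum over all 6 was 2893 to 3457 in knockout M2, 3058 to 3287 in wild-type M2, 1256 to 1339 in knockout M0 and 1433 to 1704 in wild-type M0 cells. Of the 3 fitted markers, 1 was called higher with IL-4 in each genotype and 0 lower. This was Cdh1, which encodes E-cadherin, by 1.47 in knockout and 1.26 in wild-type cells (limma, adjusted p = 8.854e-06 and 5.248e-05). The higher sums in M2 cells therefore do not show a rise of the whole list. Sftpc, a surfactant protein gene of the alveolar epithelium, read 0.14 in knockout and -0.03 in wild-type cells (adjusted p = 0.7834 and 0.9606). Scgb1a1, a club cell gene, was undetected on all M2 arrays and not called in either genotype (adjusted p = 0.6317 and 0.07949). Markers of other cell types were detected too: 2 of 7 for T cells, 2 of 4 for natural killer cells, 1 of 6 for dendritic cells and 1 of 3 for monocytes. Of these, Cd2 (T cell) and Prf1 (natural killer cell) were detected on all arrays. Of 6 eosinophil, basophil and mast cell markers 1 was detected, Fcer1a, on M2 arrays only. No fitted marker of these cell types was called in any comparison. B cell and erythroid markers were undetected. The part of these markers in the SOCS results was not tested.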

How the data were processed

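The deposited intensity table holds 12 arrays, with a detection p-value per probe and array, per the file headers; its values below 0 show that a background had been subtracted. Processed intensities by the authors form another table, with a normalization not given in the sources used here. Per the labels' protocols, total RNA was amplified and biotin labelled. Here, limma 3.58.1 in R 4.3.3 corrected background with normexp (offset 16, background from the detection p-values), and values were then quantile normalized and turned to log2. Probes with detection p under 0.05 on at least 3 arrays were kept, the brightest probe stood for a gene, and 4 group means were fitted with lmFit and eBayes (8 residual degrees of freedom), with p-values adjusted over 6563 genes. The fit was tested on simulated data. Figures used matplotlib 3.10.9.

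The order of quantile normalization and log2 follows the written design. Both orders were run before this was settled, an earlier account of the series used the other, and it changes the call of 1 result, given with both values.

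Where a group was undetected on every array, the fold is a bound against the higher of its own value and the lowest detected signal. Genes were named from the platform annotation (23978 probes with 1 symbol, 1719 unnamed). The members and lists were chosen with earlier results of these data known, and a list of target genes is not reported here. Named were all members, up to 4 called genes per list and comparison by smallest p, and the 3 genes most like each member. Some cell type markers that were not called were named too. Replicate numbers exist only in the authors' table. There, the log2 values of each fitted gene were taken as deviations from the mean of their group. Between same-numbered samples of 2 groups these deviations, not the levels, correlated at -0.0175 to 0.396, over 0.1 in 12 of 18 pairs. All 3 pairs exceeded 0.1 within knockout cells, within M0 cells and between LMP7ko_M2 and WT_M0 cells. Alternatives covered scaling, background, filters, probe choice, array weights, the authors' values and single arrays left out.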

Additional observations from a re-analysis of the deposited data

How the results depend on the processing

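The counts of called SOCS genes with IL-4 were 3 in knockout cells under all 26 other settings and 2 to 3 in wild-type cells, where Socs6 lost its call in 9. The M2 genotype count was 0 without normexp and 1 otherwise, and the M0 count 0 throughout. For the difference of responses, 0 genes were called as reported and 1, Cish, with an offset of 50, no filter, every kept probe, the mean of a gene's probes, array weights or log2 before quantile normalization, the last chosen after seeing the data. Leaving out single arrays gave 0 to 0. With the authors' values, the fit with the replicate block gave 0.87 for Cish (adjusted p = 0.09179) and the unblocked fit 0.09123, and the block changed no call of a SOCS gene against the unblocked fit. A filter of detection p under 0.01 on all 12 arrays left no SOCS gene and gave no value. Only uncalled values changed sign, and the cause was not tested. With median scaling, Socs1 gave -0.0246 (M2 genotype) and -0.0324 (difference), Socs2 -0.0247 (M2 genotype), Cish 0.0315 (M0 genotype) and Socs5 -0.0207 (difference). Cish in the M0 genotype comparison gave 0.0123 with cyclic loess and 0.30 without normexp. Array weights gave Socs1 -0.0192 in M2 and -0.026 in M0. Without the 3 arrays of lowest detected share, a setting added after seeing the data, Socs5 gave -0.057 (wild-type response) and -0.0307 (M0 genotype), and Socs1 -0.20 (M2), -0.16 (M0) and -0.0431 (difference). Over single arrays left out, Socs1 ranged from -0.0252 to 0.41 (knockout response), -0.19 to 0.24 (M2), -0.13 to 0.12 (M0) and -0.23 to 0.21 (difference), Socs5 from -0.0555 to 0.35 (wild-type response) and -0.13 to 0.28 (difference), and Cish in M0 from -0.0651 to 0.0377. Signal over background limits Cish in M0 cells, Socs1 and Socs3.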
